A study of Mus musculus with 8 samples.

Results

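The genes described here are 10 components of the NF-κB pathway: the cytoplasmic inhibitors Nfkbia, Nfkbib and Nfkbie, the nuclear inhibitor-like proteins Nfkbiz and Bcl3, the ubiquitin-editing inhibitors Tnfaip3 and Tnip1, the noncanonical subunits Nfkb2 and Relb, and the adaptor Traf1. They were chosen by name, as the entries of the deposited table that carry these symbols, and all 10 were found among its 25124 genes. RNA of mouse bone marrow macrophages was sequenced as 8 libraries, 2 in each of 4 groups, to ask how PRDX1 changes the response of osteoclast precursors to RANKL. PRDX1 is peroxiredoxin 1, a peroxidase that can also be released by cells, and RANKL is the TNF family cytokine that drives macrophages to become osteoclasts.

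The labels give C57BL/6 mice aged 6 to 8 weeks as the source of the marrow, whereas the study's culture methods name ICR mice. Marrow cells were held with M-CSF at 5 ng/mL for 16 h, and the non-adherent cells were then grown with M-CSF at 30 ng/mL for 3 days. The M-CSF group then received neither agent, the PRDX1 group 200 nM recombinant PRDX1, the RANKL group 100 ng/mL RANKL, and the RANKL+PRDX1 group both, for 48 h. M-CSF, the survival factor of these cells, was thus common to all 4 groups. The labels do not say whether the 2 replicates of a group came from separate mice or cultures, so p-values measure the spread between these libraries, which may be technical. Reads on genes numbered 24542578 to 41712973 per library, and each member value rested on 143 to 10548 reads.

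Levels are given as FPKM, fragments scaled to the length of the transcript and to the reads of the library. The macrophage markers (Csf1r, Adgre1, Cd68, Fcgr1, Itgam and Mertk) summed to 2010 to 2030 FPKM with M-CSF, 2290 to 2360 with PRDX1, 1260 to 1380 with RANKL and 1700 to 1740 with both. The 9 osteoclast markers summed to 34.4 to 35.3, 80.4 to 84.8, 1830 to 1930 and 235 to 243 FPKM in the same order of groups, and so were highest in both libraries that carry the RANKL label alone. Neutrophil markers, of which 2 of 8 averaged above 1 FPKM, summed to 8.19 to 12.2, 38.8 to 43.3, 16.2 to 16.6 and 34.0 to 37.5 FPKM. Stromal markers, of which 2 of 5 averaged above 1 FPKM, summed to 7.91 to 10.6, 16.3 to 16.5, 8.08 to 9.8 and 15.4 to 18.9 FPKM. B cell markers, of which 0 of 4 did so, summed to 0.577 to 0.96, 1.57 to 2.08, 0.617 to 0.913 and 1.36 to 1.58. Dendritic cell markers, of which 1 of 5 (Ccr7) averaged above 1 FPKM, summed to 1.58 to 2.08, 2.21 to 2.43, 1.88 to 2.16 and 3.38 to 4.2 FPKM. T and NK cell markers summed to at most 0.09, with Cd3e and Ncr1 at 0 in every library. The neutrophil, stromal, B cell and dendritic cell sums were higher in every library with PRDX1 than in every library without it. The sums move with the groups, and their part in the results below was not tested. In bulk RNA, fewer cells of a type and less RNA per cell cannot be told apart.

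In resting cells the NF-κB dimers built on RelA and c-Rel are held in the cytoplasm by IκB proteins. Stimuli that activate the IKK complex, among them Toll-like receptor ligands and RANKL, lead to destruction of IκB, and the freed dimers then transcribe the genes of their own inhibitors as negative feedback. The noncanonical branch works through NIK, which drives processing of the p100 product of Nfkb2 so that p52 pairs with RelB. Both branches act downstream of RANK, the receptor of RANKL, in osteoclast precursors.

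Because feedback genes are classical NF-κB targets, the promoters of the members were searched for the κB consensus, the 10-base element that NF-κB dimers recognise, on both strands of RefSeq windows from 250 bases before to 50 bases after a transcript start (GRCm38.p6, the build also called mm10). A window was present for 8 of the 10 members, which have 11 starts between them. Nfkbiz and Relb had none in the table. The consensus was found for 6 of these 8 members and in 8 of the 11 windows, against 1480 of all 32851 windows (4.51%). Of the 11 windows, 3 are of Nfkb2, and 2 of these overlap and hold the same match, so the windows are not independent. Matches can overlap, since the consensus is nearly the same on both strands. The sequences below show the match in capitals with 10 bases on each side, read 5′ to 3′ along the gene's own strand, for the inhibitors that held a match and for Nfkb2.
Nfkbia: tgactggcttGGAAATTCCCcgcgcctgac
Tnfaip3: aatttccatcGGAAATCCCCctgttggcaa
Tnip1: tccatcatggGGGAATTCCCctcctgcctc
Bcl3: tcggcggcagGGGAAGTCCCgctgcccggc
Nfkbie: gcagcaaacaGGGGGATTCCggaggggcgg
Nfkb2, upstream start: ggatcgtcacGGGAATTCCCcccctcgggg
Nfkb2, start in the table: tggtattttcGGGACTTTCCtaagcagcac

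Coordinates are those of the printed 30 bases, and distances run from the start to the match within them. The Nfkbia stretch lies at chr12:55492657-55492686 on the minus strand, with the match 29 bases before the start. That of Tnfaip3 lies at chr10:19015403-19015432 on the minus strand, with the match 12 bases before the upstream start, and a second match lies 125 bases before that start. No match was present at the other Tnfaip3 start, which is the start of the transcript counted in the table. The Tnip1 stretch lies at chr11:54962978-54963007 on the minus strand, and its match, 57 bases before the start, is 1 of 4 overlapping matches. In the Bcl3 stretch, at chr7:19822734-19822763 on the minus strand, the match begins 2 bases after the start, within the first exon. In the Nfkbie stretch, at chr17:45555584-45555613 on the plus strand, it begins 106 bases before the start. The Nfkb2 stretches lie at chr19:46304688-46304717, with the match 39 bases before the upstream start, and at chr19:46305695-46305724, with the match 225 bases before the start used in the table, both on the plus strand. Neither the Nfkbib nor the Traf1 window held a match. A match describes these letters and was not tested as a binding site.

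Across the members the levels fell into several patterns, shown in the plot of FPKM by library. For every member but Nfkbib and Nfkbiz, all libraries with RANKL lay above all libraries without it. How many of all genes separate in this way was not counted. Nfkbib was nearly level, and Nfkbiz was higher in the libraries with PRDX1 than in those without. The widest span of group means belonged to Traf1, at 48.5-fold, and the narrowest to Nfkbib, at 1.13-fold. For a test across all genes, log2(FPKM + 1) was compared by limma for the 11700 genes with a mean of at least 0.5 FPKM, and every member passed that filter. A gene was called where the Benjamini-Hochberg adjusted p was under 0.05 and the change was at least 1.5-fold on this scale, which understates changes of genes with low FPKM. The comparisons share libraries and are not independent of each other. With 2 libraries against 2, a permutation test of a single gene cannot go below a two-sided p of 0.33, so every p given is from limma.

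**Figure D1:**
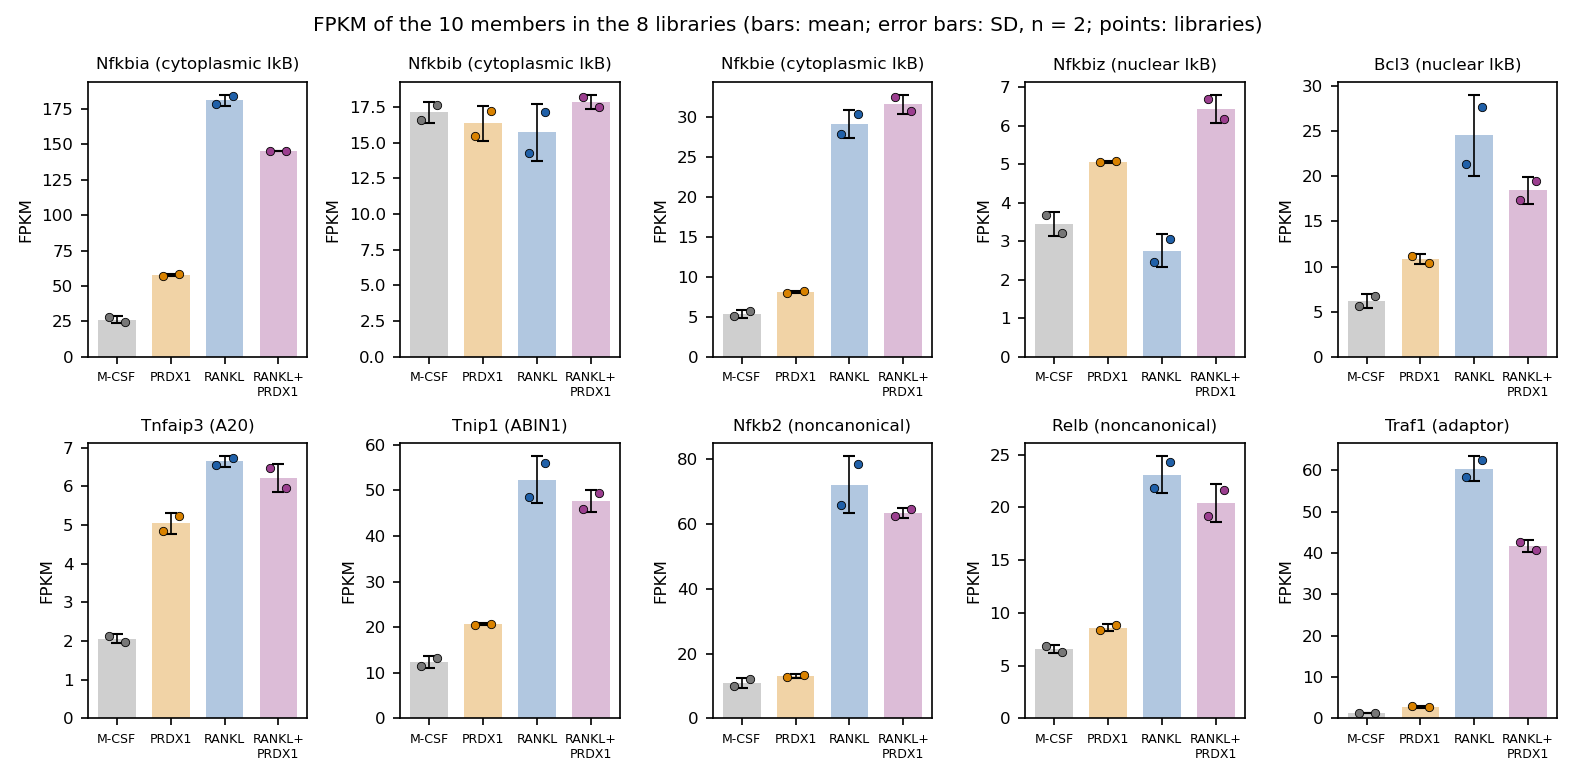
FPKM (vertical axis, linear, from 0) of the 10 members in the M-CSF, PRDX1, RANKL and RANKL+PRDX1 groups. Points are libraries, bars are means and error bars are SD (n = 2); Nfkbia runs from 24.7 to 184 FPKM, while Nfkbib stays within 14.3 to 18.2 FPKM.

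PRDX1 without RANKL raised 5 of the 10 members: Nfkbia, Tnfaip3, Traf1, Bcl3 and Tnip1. Over all genes tested, 3.8% were called higher and 1.99% lower in this comparison. The 7 genes grouped here and below as inhibitors include the nuclear inhibitor-like Nfkbiz and Bcl3. Their RNA does not measure inhibition of NF-κB. These 7 had 4 called higher, Bcl3 among them, and a median log2 change of 0.70, against a median of -0.04 over all genes tested. Neither noncanonical subunit was called. The lists were chosen with earlier results known, so these counts are descriptions.

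Nfkbia (NM_010907, chr12:55489409-55492647 on the minus strand) encodes IκBα, the inhibitor that is degraded and resynthesised fastest in the canonical loop. It measured 27.96 and 24.7 FPKM in the M-CSF libraries, 57.0 and 58.2 with PRDX1, 178.5 and 184 with RANKL, and 145.4 and 145.3 with both. The 4 groups do not overlap in any pair, and RANKL alone is the highest. PRDX1 raised it by 1.10 ± 0.06 on the log2 scale (SE; adjusted p = 8.56e-07), a ratio of 2.19 in FPKM. With RANKL present the change by PRDX1 was -0.32 ± 0.06 (adjusted p = 0.00167), which passed the p threshold but at 1.24-fold was not called. The difference between these means in FPKM was -19.8%. RANKL raised Nfkbia by 2.74 ± 0.06 without PRDX1 (adjusted p = 2.31e-10) and by 1.32 ± 0.06 with it (adjusted p = 1.58e-07).

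Nfkbib (NM_001306222, chr7:28759038-28766644 on the minus strand) encodes IκBβ, a second cytoplasmic inhibitor. Its values were 16.6 and 17.6 FPKM with M-CSF, 15.5 and 17.2 with PRDX1, 14.3 and 17.2 with RANKL, and 18.2 and 17.5 with both. The ranges of the first 3 groups overlap. Nfkbib was called in none of the 7 comparisons, and its 95% interval for PRDX1 without RANKL ran from -0.26 to 0.13 on the log2 scale.

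Nfkbie (NM_008690, chr17:45555700-45563168 on the plus strand) encodes IκBε, the third of the cytoplasmic inhibitors. It read 5.05 and 5.73 FPKM with M-CSF, 8.04 and 8.17 with PRDX1, 27.9 and 30.3 with RANKL, and 32.4 and 30.7 with both. Nfkbie was highest with both agents, although RANKL+PRDX1 and RANKL differed by 0.11 ± 0.07 on the log2 scale (adjusted p = 0.236). PRDX1 without RANKL gave 0.51 ± 0.07 (adjusted p = 0.000618), 1.43-fold on this scale and so not called. RANKL raised it by 2.24 ± 0.07 without PRDX1 (adjusted p = 3.85e-09) and by 1.84 ± 0.07 with PRDX1 (adjusted p = 7.64e-08).

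Nfkbiz (NM_001159394, chr16:55811377-55822138 on the minus strand) encodes IκBζ, a nuclear protein that works with NF-κB at secondary response genes. The libraries gave 3.67 and 3.22 FPKM with M-CSF, 5.04 and 5.08 with PRDX1, 2.46 and 3.06 with RANKL, and 6.69 and 6.17 with both. Both libraries with PRDX1 lie above both without it at each RANKL dose, and RANKL alone is the lowest group. Nfkbiz was the member that PRDX1 raised in the presence of RANKL, by 0.99 ± 0.10 on the log2 scale (adjusted p = 3e-05), or 2.33-fold in FPKM. Without RANKL the change was 0.45 ± 0.10 (adjusted p = 0.00725) and was not called. RANKL gave -0.25 ± 0.10 without PRDX1 (adjusted p = 0.0543) and 0.29 ± 0.10 with it (adjusted p = 0.0389), neither of them called.

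Bcl3 (NM_033601, chr7:19808462-19822755 on the minus strand) encodes the other nuclear IκB-like protein, which binds p50 and p52 homodimers. Its levels were 5.65 and 6.69 FPKM with M-CSF, 11.2 and 10.4 with PRDX1, 21.3 and 27.7 with RANKL, and 17.4 and 19.5 with both. The RANKL pair is the most spread, and both of its libraries still exceed both with RANKL+PRDX1. PRDX1 alone raised Bcl3 by 0.72 ± 0.12 (adjusted p = 0.00141), whereas under RANKL the change was -0.38 ± 0.12 (adjusted p = 0.0255) and was not called. It ran from -0.57 without RANKL replicate 1 to -0.20 without RANKL replicate 2. RANKL raised it by 1.82 ± 0.12 without PRDX1 (adjusted p = 5.61e-07) and by 0.72 ± 0.12 with PRDX1 (adjusted p = 0.00103). With no filter on low FPKM the calls for PRDX1 alone (adjusted p = 0.0645) and for RANKL with PRDX1 (adjusted p = 0.0505) were lost.

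Tnfaip3 (NM_001166402, chr10:19000910-19011963 on the minus strand) encodes A20, which edits ubiquitin chains on proteins upstream of IKK. It was found at 2.14 and 1.99 FPKM with M-CSF, 4.85 and 5.23 with PRDX1, 6.55 and 6.74 with RANKL, and 6.47 and 5.96 with both. Of the 8 members that RANKL raised, Tnfaip3 had the smallest ratio of RANKL to PRDX1 alone, 1.32 in FPKM. The rise with PRDX1 alone was 0.98 ± 0.08 on the log2 scale (adjusted p = 1.62e-05), or 2.44-fold in FPKM. That with RANKL alone was 1.32 ± 0.08 (adjusted p = 3.41e-07), and RANKL and PRDX1 alone differed by 0.34 ± 0.08 (adjusted p = 0.00388), which was not called. Under RANKL, PRDX1 gave -0.08 ± 0.08 (adjusted p = 0.43).

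Tnip1 (NM_001199276, chr11:54910787-54962940 on the minus strand) encodes ABIN1, a ubiquitin-binding partner of A20. The values were 11.4 and 13.3 FPKM with M-CSF, 20.5 and 20.7 with PRDX1, 48.6 and 56.0 with RANKL, and 45.9 and 49.4 with both. The last 2 groups overlap, and every other pair is apart. PRDX1 alone raised Tnip1 by 0.70 ± 0.08 (adjusted p = 0.000198) and under RANKL gave -0.13 ± 0.08 (adjusted p = 0.24). RANKL raised it by 2.0 ± 0.08 alone (adjusted p = 2.21e-08) and by 1.17 ± 0.08 in the presence of PRDX1 (adjusted p = 4.04e-06).

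Nfkb2 (NM_001177370, chr19:46305930-46312090 on the plus strand) encodes p100, the precursor of p52. Its libraries measured 9.93 and 12.1 FPKM with M-CSF, 12.6 and 13.5 with PRDX1, 66.0 and 78.4 with RANKL, and 62.4 and 64.5 with both. The step lies between the groups with and without RANKL, which are far apart. RANKL raised Nfkb2 by 2.61 ± 0.10 without PRDX1 (adjusted p = 9.91e-09) and by 2.19 ± 0.10 with it (adjusted p = 1.59e-07), the latter ranking 28 of 11700 genes by size. PRDX1 alone gave 0.23 ± 0.10 (adjusted p = 0.103), and -0.18 ± 0.10 when added to RANKL (adjusted p = 0.169). Leaving out single libraries moved the first from 0.10 (without M-CSF replicate 1) to 0.37 (without M-CSF replicate 2) and the second from -0.30 (without RANKL replicate 1) to -0.06 (without RANKL replicate 2). The 3′ end of Nfkb2 overlaps that of Psd on the other strand by 4 bases, and reads were counted on both strands. Psd was listed at 0.352 to 3.29 FPKM, and the part of shared reads in the Nfkb2 values was not tested.

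Relb (NM_001290457, chr7:19606223-19629438 on the minus strand) encodes the partner of p52 and lies 179.0 kb from Bcl3. It measured 6.86 and 6.31 FPKM with M-CSF, 8.35 and 8.86 with PRDX1, 21.9 and 24.3 with RANKL, and 19.2 and 21.7 with both. As for Nfkb2, the groups with RANKL stand well above those without. RANKL raised Relb by 1.67 ± 0.08 without PRDX1 (adjusted p = 7.1e-08) and by 1.16 ± 0.08 with it (adjusted p = 3.78e-06). PRDX1 alone gave 0.34 ± 0.08 (adjusted p = 0.0113), and -0.17 ± 0.08 when added to RANKL (adjusted p = 0.122), neither of them called.

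Traf1 (NM_001326601, chr2:34941750-34961772 on the minus strand) encodes a TNF receptor adaptor that joins TRAF2 and the cIAP ubiquitin ligases. Its values were 1.29 and 1.21 FPKM with M-CSF, 2.96 and 2.62 with PRDX1, 58.3 and 62.6 with RANKL, and 42.7 and 40.7 with both. No pair of groups overlaps. RANKL raised Traf1 by 4.77 ± 0.07 without PRDX1 (adjusted p = 2.71e-11) and by 3.49 ± 0.07 with it (adjusted p = 4.8e-09), which ranked 10 and 3 among 11700 genes by size. PRDX1 raised it by 0.75 ± 0.07 without RANKL (adjusted p = 4.74e-05), or 2.24-fold in FPKM. At this low level the log2 change depended on the scale, at 1.10 with a pseudocount of 0.1 and 1.21 by voom. With RANKL the change was -0.52 ± 0.07 (adjusted p = 0.000269), 1.44-fold and so below the fold required.

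Under RANKL, PRDX1 therefore left 1 of the 10 members called, Nfkbiz, and none called lower, where 6.03% of all genes tested were called higher and 4.17% lower. The median log2 change of the members was -0.15, against -0.06 over all genes. The 7 inhibitors had a median of -0.08. Nfkbia, Bcl3 and Traf1 had negative changes with an adjusted p under 0.05 but under 1.5-fold.

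RANKL without PRDX1 raised 8 of the 10 members and lowered none, against 11.8% of all genes called higher and 9.96% lower. Their median log2 change was 1.91, and that of all genes tested was 0.10. The exceptions were Nfkbib and Nfkbiz. In the presence of PRDX1, RANKL raised 7 members, against 4.52% of all genes called higher and 3.98% lower, with a median of 1.16 and a median of 0.07 over all genes. Tnfaip3 joined Nfkbib and Nfkbiz among those not called, at 0.26 ± 0.08 (adjusted p = 0.0285). Over all genes, the calls for RANKL without PRDX1 were 1383 higher and 1165 lower, a split that became 1312 and 1693 by voom with TMM scaling. Those for RANKL with PRDX1 were 529 and 466, and became 597 and 806. The counts of members called higher were 8 and 7 under that scaling too.

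With both agents against M-CSF alone, 9 members were higher and none lower, against 7.5% and 5.34% of all genes, and Nfkbib was not called. Nfkbiz was among the 9, at 0.74 ± 0.10 on the log2 scale (adjusted p = 0.00019). RANKL alone against PRDX1 alone had 7 members higher and 1 lower, where 14.3% and 10.7% of all genes were called higher and lower. The lower member was Nfkbiz, at -0.69 ± 0.10 (adjusted p = 0.000145). Leaving out RANKL replicate 1 brought that to -0.58, under the fold required. The split over all genes in this comparison was 1677 higher and 1255 lower, 1231 and 1466 after quantile normalization, 1217 and 1484 after scaling to the same upper quartile, and 1321 and 1943 by voom, while that of the members was 7 and 1 in all of these.

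**Figure D2:**
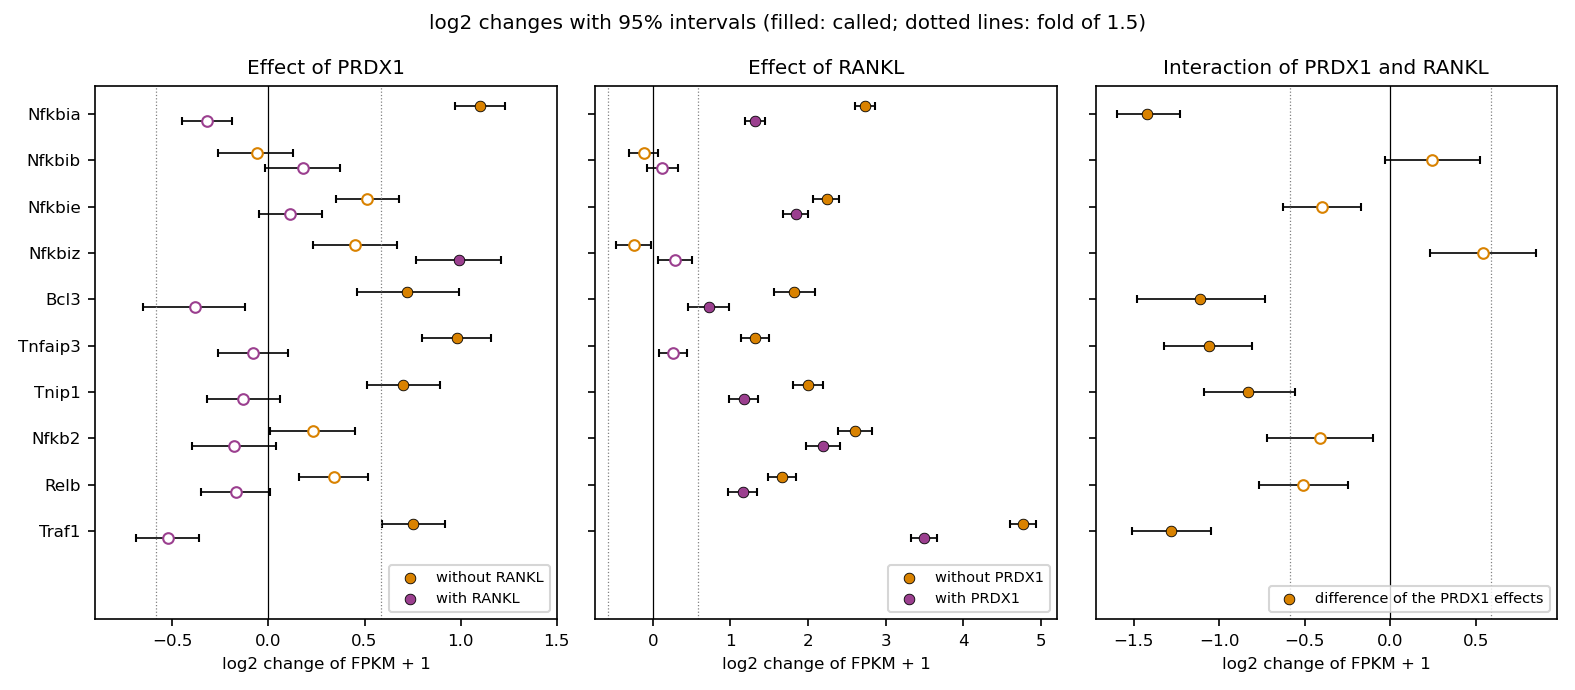
Changes of log2(FPKM + 1) (horizontal axes) of the 10 members by PRDX1, by RANKL, and the difference of the PRDX1 effects with and without RANKL. Bars are 95% intervals from limma, filled points were called and dotted lines mark a 1.5-fold change; the 5 called differences, from -1.42 for Nfkbia to -0.83 for Tnip1, are all negative.

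The effect of PRDX1 was compared between cells with and without RANKL as an interaction, the PRDX1 change with RANKL minus that without. It was called for 5 members, all with a lower PRDX1 effect under RANKL, against 4.35% of all genes called in that direction and 4.5% in the other. The values were -1.42 ± 0.08 for Nfkbia (adjusted p = 2.81e-06), -1.28 ± 0.10 for Traf1 (adjusted p = 2.23e-05), -1.11 ± 0.17 for Bcl3 (adjusted p = 0.00114), -1.06 ± 0.11 for Tnfaip3 (adjusted p = 0.000127) and -0.83 ± 0.12 for Tnip1 (adjusted p = 0.000783). These are the same 5 genes that PRDX1 alone raised, and both comparisons rest on the same PRDX1 and M-CSF libraries. The Bcl3 call was lost with no filter on low FPKM (adjusted p = 0.0632). The noncanonical subunits were at -0.41 ± 0.14 for Nfkb2 (adjusted p = 0.0574) and -0.51 ± 0.12 for Relb (adjusted p = 0.0105), and Nfkbie at -0.40 ± 0.10 (adjusted p = 0.0205), none of them called. Nfkbiz had the opposite sign, at 0.54 ± 0.14 (adjusted p = 0.0205), which was not called here but was called under 5 of the alternatives, with values from 0.59 to 0.66.

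In linear FPKM, the gain in Nfkbia was 31.2 with PRDX1, 154.9 with RANKL and 119.1 with both, less than the gain with RANKL alone. The gain with both was below that with RANKL alone in 7 of the 10 members: Nfkbia, Bcl3, Tnfaip3, Tnip1, Nfkb2, Relb and Traf1. On the log2 scale, 6852 of the 11700 genes tested also lay lower with both agents than with RANKL alone. The count of members is near that share. Of those 7, only Nfkbia, Bcl3 and Traf1 had an adjusted p by limma under 0.05 for that difference. For Tnfaip3 the gains were 2.98, 4.58 and 4.15 FPKM, and for Traf1 they were 1.55, 59.2 and 40.4. For Nfkbie, the gains of 2.72 with PRDX1 and 23.7 with RANKL summed to 26.4, and the gain with both was 26.2. For Nfkbiz the gain with both, 2.98 FPKM, exceeded the sum of the separate gains, 0.92. These sums are descriptions of group means on a scale other than that of the test.

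The inhibitors were then set against the noncanonical subunits within each library, as ratios of FPKM. The 7 inhibitors summed to 72.5 and 73.2 FPKM with M-CSF, 122 and 125 with PRDX1, 299.7 and 325 with RANKL, and 272.5 and 274.6 with both. Nfkb2 and Relb together gave 16.8 and 18.4 FPKM with M-CSF, 21.0 and 22.4 with PRDX1, 87.9 and 102.8 with RANKL, and 81.5 and 86.2 with both. The resulting ratios were 4.32 and 3.97 with M-CSF, 5.81 and 5.59 with PRDX1, 3.41 and 3.16 with RANKL, and 3.34 and 3.19 with both. Both PRDX1 libraries were thus the most weighted to the inhibitors, and the 4 libraries with RANKL were the least, with or without PRDX1. Nfkbia over Nfkb2, the pair that leads each sum, was also highest with PRDX1, at 4.50 and 4.30. In the 4 libraries with RANKL it was 2.25 to 2.70, within the 2.04 to 2.82 of the M-CSF libraries.

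Nfkbia made up a larger share of the summed inhibitors in every other group than with M-CSF alone. The share was 33.7% and 38.6% with M-CSF, 46.5% and 46.7% with PRDX1, 56.6% and 59.6% with RANKL, and 52.9% and 53.4% with both. Nfkbib was the next most abundant inhibitor in the M-CSF libraries. Tnip1 exceeded Tnfaip3, its partner, in every library, by 3.97 to 4.22 times with PRDX1 and by 5.34 to 8.30 times in the others, so that the ratio was lowest with PRDX1 alone.

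The balance of the subunits themselves moved with RANKL. Nfkb2 over Nfkb1, the genes of p100 and p105, was 0.331 and 0.378 with M-CSF, 0.445 and 0.459 with PRDX1, 1.71 and 1.92 with RANKL, and 1.71 in each library with both. Relb over Rela was 0.276 and 0.245 with M-CSF, 0.325 and 0.321 with PRDX1, 0.835 and 0.832 with RANKL, and 0.652 and 0.725 with both. Nfkb2 therefore exceeded Nfkb1 in the 4 libraries with RANKL and in none without it, while Relb stayed below Rela in all 8.

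**Figure D3:**
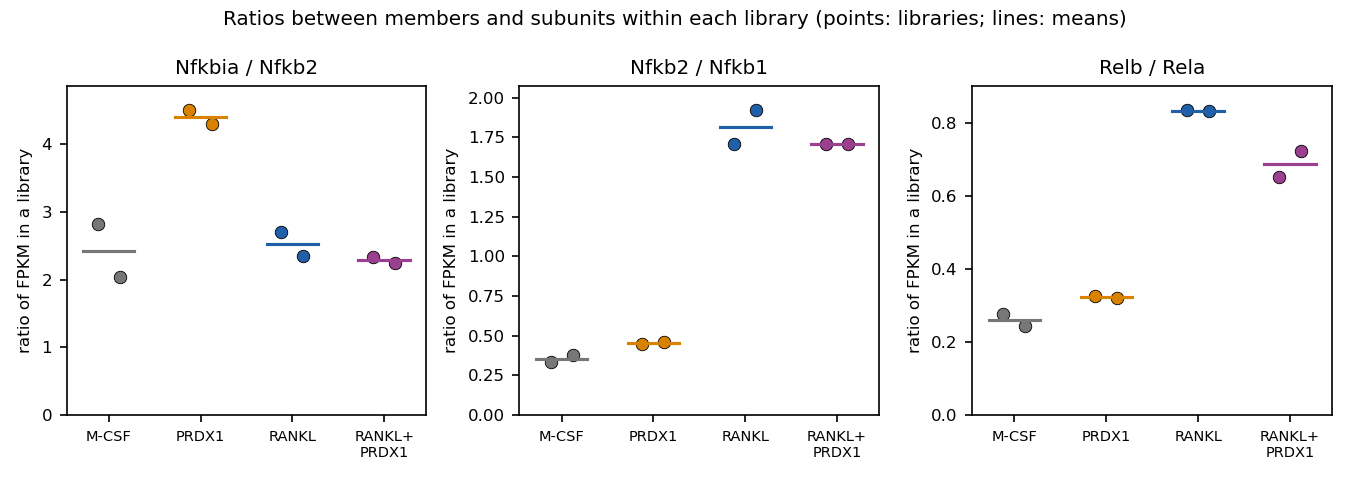
Ratios of FPKM within each library (vertical axes, linear, from 0) for Nfkbia over Nfkb2, Nfkb2 over Nfkb1 and Relb over Rela in the 4 groups. Points are libraries and lines are means; the first ratio is highest in the PRDX1 libraries (4.30 and 4.50) and the second is at least 1.71 in the 4 libraries with RANKL.

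The canonical subunits were nearly level beside these changes. Rela, the gene of p65, ranged from 24.9 to 29.9 FPKM over the 8 libraries, Rel, the gene of c-Rel, from 5.92 to 9.17, and Nfkb1 from 28.4 to 40.7. None was called in any of the 7 comparisons. With PRDX1 alone the changes were 0.07 ± 0.07 for Rela (adjusted p = 0.479), -0.03 ± 0.07 for Rel (adjusted p = 0.806) and -0.10 ± 0.06 for Nfkb1 (adjusted p = 0.245). RANKL alone gave 0.46 ± 0.07 for Rel (adjusted p = 0.000287) and 0.34 ± 0.06 for Nfkb1 (adjusted p = 0.000488), both under 1.5-fold.

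Of 36 other genes of the pathway, listed by role and all tested, 1 was higher and none lower with PRDX1 alone, against 3.8% and 1.99% of all genes, and the median change was 0.01. The gene was Tnfrsf1b, a TNF receptor (TNFR2), at 0.71 ± 0.05 (adjusted p = 8.98e-06). Under RANKL, PRDX1 raised 2 and lowered 1, against 6.03% and 4.17% of all genes, with a median of -0.05. These counts are near the shares over all genes. Tnfrsf1b rose from 20.4 in both RANKL libraries to 51.3 and 54.2 FPKM (1.33 ± 0.05, adjusted p = 5e-08). Ikbke, an IKK-related kinase, rose from 19.1 and 19.0 to 39.5 and 37.9 FPKM (0.99 ± 0.06, adjusted p = 1.2e-06). Birc3, the gene of cIAP2, a ubiquitin ligase that acts on NIK, fell from 83.8 and 76.4 to 51.6 and 52.0 FPKM (-0.62 ± 0.09, adjusted p = 0.000265).

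RANKL without PRDX1 raised 8 of the 36 and lowered 2, against 11.8% and 9.96% of all genes, with a median of 0.19. The largest changes were in Birc3 (3.03 ± 0.09, adjusted p = 1.34e-09), in Traf3 (1.43 ± 0.07, adjusted p = 9.16e-08) and in Nfkbid, the gene of a further nuclear IκB (1.42 ± 0.07, adjusted p = 6.7e-08). All 5 listed genes of NIK and the complex that degrades it (Map3k14, Traf2, Traf3, Birc2 and Birc3) were among those called higher, with changes from 0.95 to 3.03. None of the IKK complex genes, none of the TRAF6 and TAK1 genes and none of the linear ubiquitin complex genes was called. In the presence of PRDX1, RANKL raised 5 of the 36 and lowered none, against 4.52% and 3.98% of all genes, led by Birc3 (2.23 ± 0.09, adjusted p = 5.57e-08), Traf3 (1.28 ± 0.07, adjusted p = 8.55e-07) and Traf2 (0.97 ± 0.08, adjusted p = 1.05e-05).

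Both agents together against M-CSF raised 8 and lowered none, where 7.5% and 5.34% of all genes were called, with Birc3 at 2.41 ± 0.09 (adjusted p = 1.5e-08), Traf3 at 1.39 ± 0.07 (adjusted p = 2.27e-07) and Nfkbid at 1.16 ± 0.07 (adjusted p = 5.86e-07). RANKL alone against PRDX1 alone had 8 higher and 2 lower, where 14.3% and 10.7% of all genes were called, with Birc3 at 2.85 ± 0.09 (adjusted p = 1.83e-09), Traf3 at 1.32 ± 0.07 (adjusted p = 1.52e-07) and Traf2 at 1.31 ± 0.08 (adjusted p = 3.21e-07). The interaction was called for 5 of the 36, positive in 2 and negative in 3, against 4.5% and 4.35% of all genes. The largest were those of Birc3 (-0.80 ± 0.12, adjusted p = 0.00112), Ikbke (0.68 ± 0.09, adjusted p = 0.000392) and Tank, the gene of a TRAF-binding adaptor of IKK-related kinases (-0.66 ± 0.11, adjusted p = 0.00165). Ikbke thus has the sign of Nfkbiz, and Birc3 and Tank that of the inhibitors raised by PRDX1 alone.

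**Figure D4:**
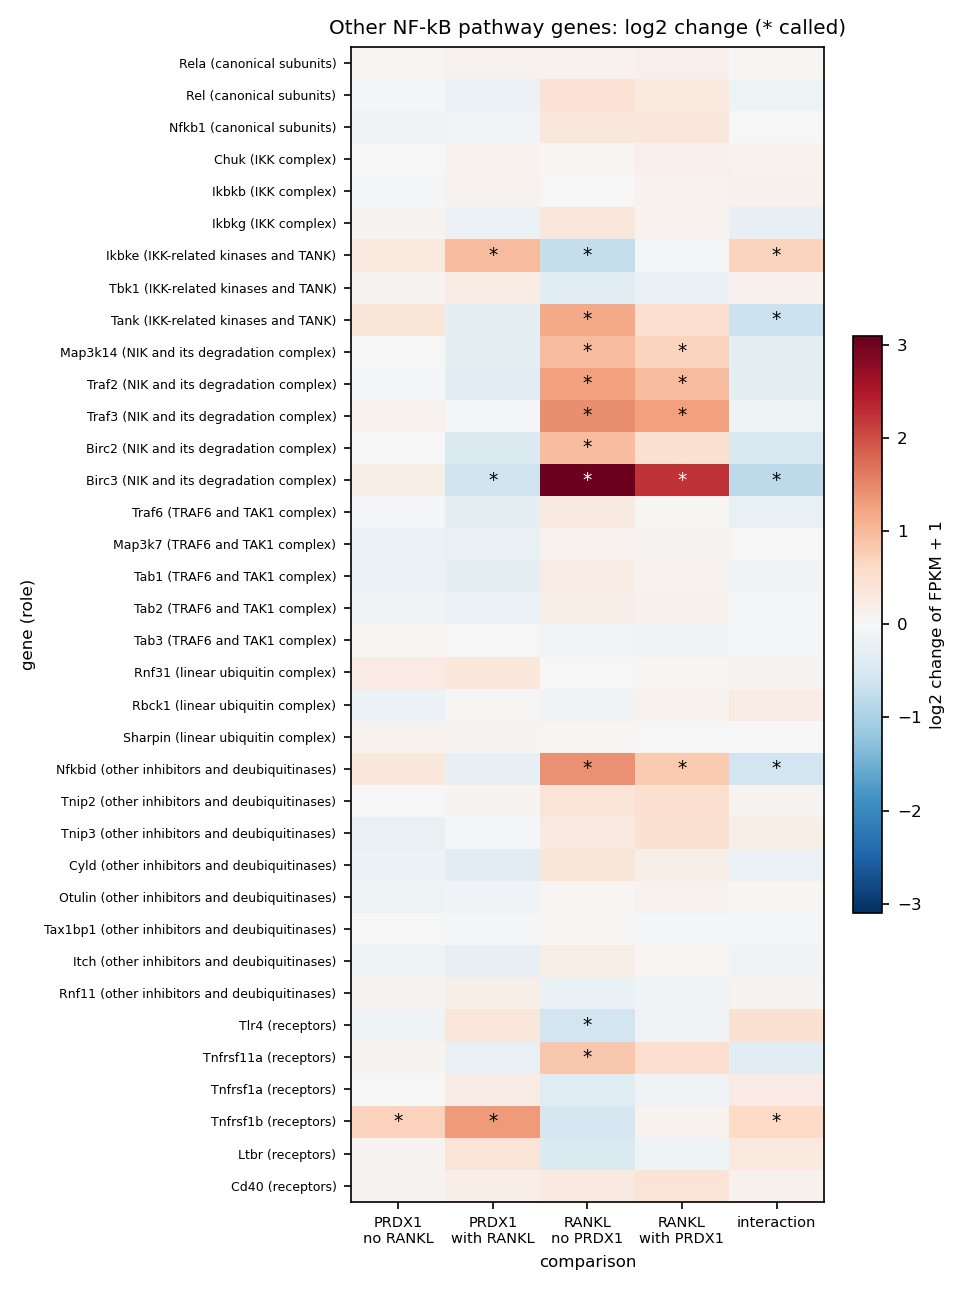
Change of log2(FPKM + 1) of the 36 other pathway genes (vertical axis, with their role) in 4 comparisons and the interaction (horizontal axis); red is higher, blue is lower and an asterisk marks a call. The column of RANKL without PRDX1 holds the most calls, 10 of the 36 genes, and Birc3 is highest there at 3.03.

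Over the 8 libraries, the log2 values of the members other than Nfkbib and Nfkbiz followed each other, with Pearson's r of 0.79 to 0.99 over their 28 pairs. Nfkbiz had r of 0.00 to 0.55 with the other 9 and Nfkbib r of -0.15 to 0.55. The libraries fall into 4 groups, so these r describe the group means and carry no test. Among 3880 tested genes that are not members and differ by at least 1.5-fold between groups, the nearest to Nfkbia was Junb (r = 0.998, n = 8 libraries), with group means of 24.4, 57.2, 163 and 134 FPKM in the order M-CSF, PRDX1, RANKL and both. The next was Gpc1 (r = 0.997). Nfkbiz was nearest to Ifitm3 and Glipr2 (each r = 0.972), and Ifitm3 averaged 693, 954, 573 and 1010 FPKM.

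By the same measure over 8 libraries, Tnfaip3 was nearest to Klf10 (r = 0.99) and Met (r = 0.984), Tnip1 to Pik3r5 (r = 0.998) and Tnfaip2 (r = 0.997), and Bcl3 to Actn1 and Inf2 (each r = 0.993). Nfkbie was nearest to Nfat5 (r = 0.998) and Lpar1 (r = 0.996). Nfkb2 was nearest to Prkcd (r = 0.999) and Zbtb32 (r = 0.998), Relb to Ltbp2 (r = 0.999) and Ppp1r12b (r = 0.998), and Traf1 to Zfp263 and Gpr132 (each r = 0.999). For Nfkbib the nearest were Mir6919 (r = 0.835) and Trem3 (r = 0.806). Nfkbib itself spans 1.13-fold, so genes as level as it were not among the candidates.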

How the data were processed

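The authors aligned reads with HISAT2 and, per the file headers, counted them on RefSeq exons of mm10 with HOMER on both strands, kept 1 transcript per gene and deposited FPKM. DESeq2 is also named in the submitters' processing notes. Versions are not given in the sources used here. The table held 25124 genes and 0 unused columns of per-sample values. FPKM times transcript length gave whole reads (within 0.1 read) for 100.0% of the genes checked, and library totals of 27284656 to 46171819 reads. The reads behind a value speak to counting error only.

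The members and lists were chosen with earlier results of these data known. For the 11700 genes whose mean was at least 0.5 FPKM, log2(FPKM + 1) was modelled by group in limma 3.58.1 (R 4.3.3) with a trend in the variance and 4 residual degrees of freedom. The fit was tested on simulated data. Calls needed an adjusted p under 0.05 and a fold of at least 1.5. Replicates differed beyond counting noise in each group (chi-square per degree of freedom 4.59 to 9.19). Named genes were the 10 members, Rela, Rel and Nfkb1, up to 3 called pathway genes with the largest change per comparison, and for each member the 2 genes with the highest r. Genes mentioned outside this rule (Psd, Map3k14 and Birc2, and the cell markers) were named with their lists or for overlap. Alternatives were a pseudocount of 0.1, no filter, quantile normalization, upper quartile scaling, only the compared groups, a replicate block, voom with TMM on the recovered reads, and leaving out each library. Promoter sequences are from RefSeq (GRCm38.p6).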

Additional observations from a re-analysis of the deposited data

Results flagged for a closer look

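For 5 members the effect of PRDX1 differed between cells with and without RANKL, by the interaction in limma with adjustment over all genes tested. The difference on the log2 scale, with RANKL minus without, was -1.42 for Nfkbia (adjusted p = 2.81e-06), -1.28 for Traf1 (adjusted p = 2.23e-05), -1.11 for Bcl3 (adjusted p = 0.00114), -1.06 for Tnfaip3 (adjusted p = 0.000127) and -0.83 for Tnip1 (adjusted p = 0.000783). The orders of libraries given next come from the values that the interaction used to pick these genes. They describe the 5 genes and add no support. In each of the 5, both PRDX1 libraries lay above both M-CSF libraries. With RANKL present, both libraries with PRDX1 lay below both without it for Nfkbia, Traf1, Bcl3 and Tnfaip3, and the pairs overlapped for Tnip1. With groups of 2, single libraries were not examined for outlying values.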

How the results depend on the processing

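Of 1040 log2 changes of members under the alternatives, 1022 kept their direction and whether they were called, though some of them crossed the p threshold alone, and 4 changed sign. These 4 were of Nfkbib, which was called in none: 0.01 for PRDX1 without RANKL (without PRDX1 replicate 1), 0.00 for RANKL without PRDX1 (without RANKL replicate 1), and 0.02 and 0.07 for RANKL against PRDX1 (without PRDX1 replicate 2 and without RANKL replicate 1). With single libraries left out, these 3 changes of Nfkbib ran from -0.14 to 0.01, from -0.24 to 0.00 and from -0.18 to 0.07. When single libraries were left out, the number of members called was 5 to 6 for PRDX1 without RANKL, 1 for PRDX1 with RANKL, 8 and 7 for RANKL without and with PRDX1, 9 for both agents, 7 to 8 for RANKL against PRDX1 and 5 to 7 for the interaction. Nfkbie was called for PRDX1 without RANKL without M-CSF replicate 2 (0.59) and by voom (0.62), and Nfkbiz by voom (0.62). Relb was called in the interaction without RANKL replicate 1 (-0.59) and without RANKL+PRDX1 replicate 2 (-0.60). The cause was not tested. Voom moved the median over all genes by -0.13 for RANKL against PRDX1, the only shift over 0.1 among these settings. With 2 libraries a group, several changes that were not called moved by over 1.5 times with single libraries left out, as for PRDX1 with RANKL in Relb (-0.25 to -0.09), Tnip1 (-0.23 to -0.03) and Tnfaip3 (-0.14 to -0.03).

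With the replicate number as a block, the members called were 5 for PRDX1 without RANKL, 1 for PRDX1 with RANKL and 5 for the interaction, and no call of a member changed. Nfkb2 for PRDX1 without RANKL stayed under the fold required, with an adjusted p of 0.0255 under the block. The deviations of same-numbered libraries from their group means correlated at 0.01 to 0.10 over the 6 pairs of groups. With 2 libraries a group these deviations mirror each other, so such small values do not show whether the numbers pair libraries. The numbers were taken as names, not as pairs.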
